A study of Mus musculus with 6 samples.

Results

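Platelet and megakaryocyte genes were examined in left ventricle of mice with sickle cell disease. The set held 10 genes chosen by name: Pf4, Ppbp, Itga2b, Itgb3, Gp1ba, Gp1bb, Gp5, Gp6, Gp9 and Treml1. A gene counted as measured where the array platform's annotation gave at least 1 row its symbol and no other, and 8 of the 10 were, among 21506 genes in all. No row was assigned to Gp1ba or Gp1bb alone, and these genes were not analysed here. The left ventricles of 6 male mice each gave total RNA for an Affymetrix Mouse Gene 2.0 ST array, 1 per mouse. The 3 sickle mice were homozygous for Hbbtm2(HBG1,HBB*)Tow, which puts human gamma-globin and sickle beta-globin genes at the mouse beta-globin locus. The 3 control mice were homozygous for Hbbtm3(HBG1,HBB)Tow, which carries a non-sickling human beta-globin gene instead. Both groups also carried Hbatm1(HBA)Tow, a human alpha-globin replacement, on a mixed B6;129 background, and were 10 to 14 weeks old. The model is a change of the whole animal and is not limited to the heart.

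Platelets are cell fragments without a nucleus that megakaryocytes shed into the blood, and the RNA they carry comes from those parent cells. At a damaged vessel wall they hold on to von Willebrand factor through the GPIb-IX-V complex, are activated by collagen through glycoprotein VI, bind fibrinogen through the integrin of Itga2b and Itgb3, and empty granules filled with chemokines. Blood clots and activated platelets are a known feature of sickle cell disease. The tissue RNA here includes that of any blood left in the vessels, and the sources used here do not say whether the hearts were flushed. Fewer platelets and less RNA per platelet cannot be told apart in bulk tissue, nor can platelets in passing blood and platelets held in vessels.

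The sequences printed here lie just before the transcription start sites of 4 of the genes. Pf4 and Ppbp are shown because they are neighbours on chromosome 5. Their log2 differences, sickle minus control, were 0.13 and 0.61, and whether these differ from each other was not tested. Itga2b and Gp5 are shown because their values varied least between arrays. Each run is the 250 bases before the start, 5′ to 3′ on the gene's strand, from RefSeq on GRCm38.p6. Capitals mark matches on either strand to 2 motifs of 6 bases: GATA after an A or a T and before an A or a G, the letters that GATA factors bind, and GGAA after an A or a C and before an A or a G, the letters that ETS factors such as Fli1 bind. The positions are chr5:90772185-90772434 (plus strand) for Pf4, chr5:90768268-90768517 (plus strand) for Ppbp, chr11:102469884-102470133 (minus strand) for Itga2b and chr16:30310782-30311031 (minus strand) for Gp5.
Pf4: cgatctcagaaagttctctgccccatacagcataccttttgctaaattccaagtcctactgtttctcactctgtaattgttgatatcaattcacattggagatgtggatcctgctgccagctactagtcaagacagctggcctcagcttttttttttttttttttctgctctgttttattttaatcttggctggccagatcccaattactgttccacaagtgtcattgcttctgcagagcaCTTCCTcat
Ppbp: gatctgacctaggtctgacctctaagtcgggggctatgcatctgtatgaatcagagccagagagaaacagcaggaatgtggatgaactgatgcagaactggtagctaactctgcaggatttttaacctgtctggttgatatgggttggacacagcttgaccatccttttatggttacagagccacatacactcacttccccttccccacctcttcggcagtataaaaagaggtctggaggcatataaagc
Itga2b: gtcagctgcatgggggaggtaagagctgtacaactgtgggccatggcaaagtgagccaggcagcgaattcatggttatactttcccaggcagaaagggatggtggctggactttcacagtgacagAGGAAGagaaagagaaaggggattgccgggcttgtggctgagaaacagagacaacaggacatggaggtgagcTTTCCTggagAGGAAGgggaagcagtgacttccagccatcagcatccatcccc
Gp5: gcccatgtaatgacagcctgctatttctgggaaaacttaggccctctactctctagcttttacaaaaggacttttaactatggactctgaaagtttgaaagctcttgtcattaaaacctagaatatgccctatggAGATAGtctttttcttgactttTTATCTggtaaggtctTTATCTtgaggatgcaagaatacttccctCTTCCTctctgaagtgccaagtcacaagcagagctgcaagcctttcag

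Of the 10 genes, 9 had an entry in the promoter table, and Itgb3 had none. ETS letters were present in 8 of these 9 windows, and in 57.0% of 27025 windows of the same length, 1 per gene. GATA letters were present in 4 of the 9 (Gp1ba, Gp1bb, Gp5 and Gp6) and in 27.1% of all windows. The Gp5 window held 3 GATA matches and 1 ETS match. The Itga2b window held 3 ETS matches and no GATA match, and the Ppbp window held neither. No base in the 9 windows lay in a match of both kinds. These matches describe letters and do not show binding.

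Sickle and control ventricles were compared to learn whether platelet transcripts differed between them. None of the 8 measured genes passed the test, which does not show that the groups were alike. With limma and Benjamini-Hochberg adjustment over all genes, 0 of 8 passed an adjusted p of 0.05, against 39 of 21506 genes (0.181%), 0.167% higher and 0.0139% lower. Their adjusted p lay between 0.551 and 0.998. At an unadjusted p under 0.05, 1 of the 8 was counted, Ppbp, against 8.69% of all genes. The groups overlapped for all 8 genes, whereas they did not overlap for 16.0% of all genes. The median difference over the 8 genes, sickle minus control, was 0.01 on the log2 scale, and that over all genes was -0.01. Of the 8 genes, 4 had a higher mean in sickle and 4 a lower one.

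Among the chemokines stored in platelet granules, Ppbp had the smallest p of the 8 genes and Pf4 did not stand out. Ppbp encodes pro-platelet basic protein, the precursor of a chemokine that attracts neutrophils. Its log2 levels were 6.04, 6.49 and 6.95 in sickle replicates 1, 2 and 3, against 6.18, 5.75 and 5.71 in control replicates 1, 2 and 3. Sickle replicates 2 and 3 lay above every control array, and sickle replicate 1 lay below control replicate 1. The means were 6.49 ± 0.45 in sickle and 5.88 ± 0.26 in control (SD, n = 3 each). The difference was 0.61 ± 0.23 (SE), or 1.53-fold, with a 95% interval of 0.07 to 1.15 before any adjustment for the number of genes. It did not pass (limma adjusted p = 0.551), and it was 0.38 without sickle replicate 3.

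Pf4, next to Ppbp on the chromosome, encodes platelet factor 4, a chemokine that binds heparin. It had log2 levels of 6.51, 6.55 and 6.98 in sickle, against 6.35, 6.80 and 6.49 in control. Only sickle replicate 3 was above every control array, and the other sickle arrays lay within the control range. The difference was 0.13 ± 0.17 (SE; 95% interval -0.26 to 0.52; limma adjusted p = 0.840), and -0.02 without sickle replicate 3.

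**Figure D1:**
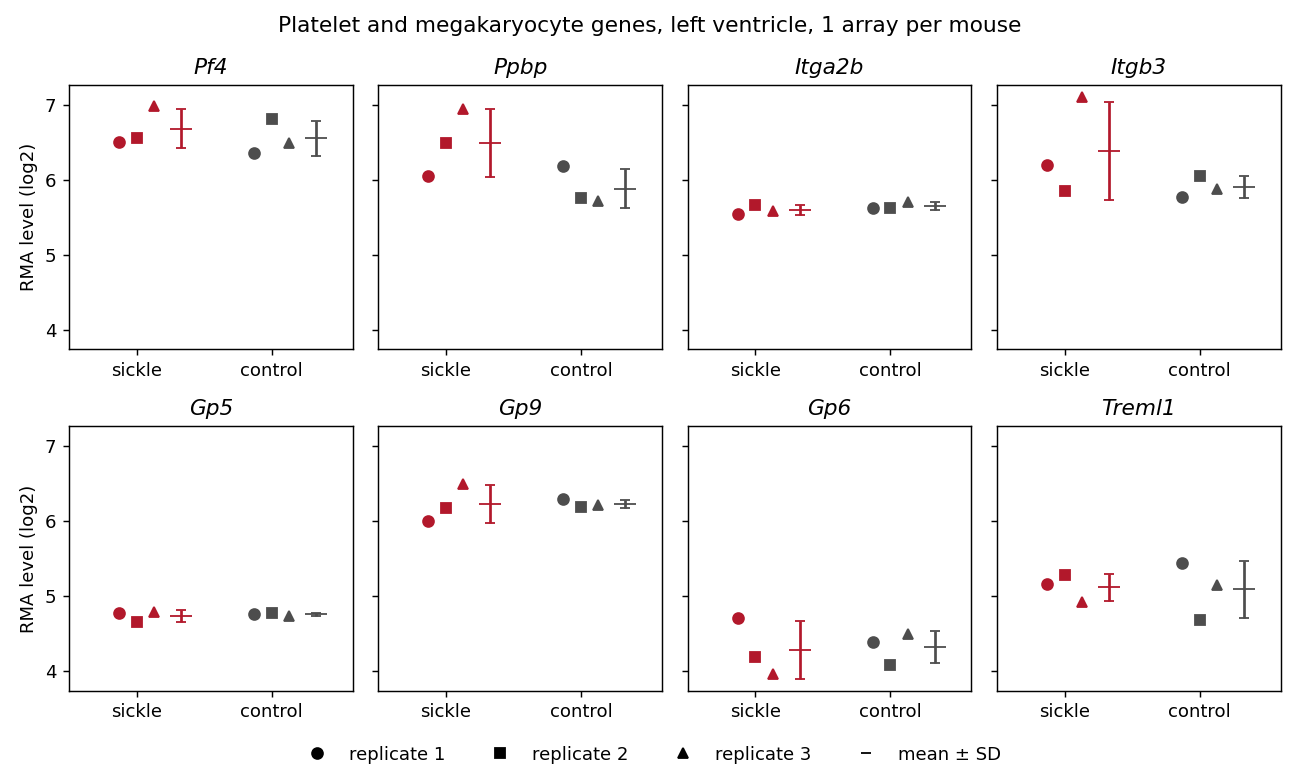
RMA level on the log2 scale (vertical axis) of the 8 measured platelet and megakaryocyte genes in sickle (red) and control (grey) ventricle, with 1 symbol per mouse by replicate number and the mean ± SD beside them (n = 3 each). The groups overlap in every panel, and sickle replicate 3 is the highest of the 6 arrays for 5 of the 8 genes (23.9% of all genes).

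The subunits of the fibrinogen receptor gave unlike values. Itga2b encodes the alpha subunit, which is made almost only by megakaryocytes and their precursors. It was nearly level over the arrays, at 5.54, 5.67 and 5.58 in sickle and 5.62, 5.63 and 5.71 in control. All sickle values were within or just below the control range. The difference was -0.05 ± 0.09 (SE), and its 95% interval of -0.26 to 0.15 corresponds to folds between 0.834 and 1.11 (limma adjusted p = 0.879).

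Itgb3 encodes the beta subunit, which endothelial cells, smooth muscle and macrophages also make and pair with another alpha subunit. It had 6.19, 5.85 and 7.10 in sickle, against 5.77, 6.06 and 5.87 in control. Sickle replicate 3 was by far the highest array. Sickle replicate 2 lay within the control range. The difference was 0.48 ± 0.29 (SE; 95% interval -0.19 to 1.15; limma adjusted p = 0.661), and 0.12 without sickle replicate 3.

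Of the von Willebrand factor receptor, Gp5 and Gp9 were measured. Gp9 encodes glycoprotein IX, needed to bring the complex to the surface, and had 6.003, 6.17 and 6.50 in sickle and 6.29, 6.19 and 6.21 in control. The sickle arrays lay on both sides of the control range, and the difference was -0.002 ± 0.136 (SE; 95% interval -0.32 to 0.31; limma adjusted p = 0.998). Gp5 encodes glycoprotein V, the thrombin-cleaved subunit, and had 4.78, 4.65 and 4.79 in sickle and 4.77, 4.77 and 4.74 in control. Its difference was -0.02 ± 0.09 (SE; 95% interval -0.23 to 0.19; limma adjusted p = 0.962).

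Gp6, the collagen receptor, had 4.71, 4.19 and 3.96 in sickle and 4.40, 4.09 and 4.49 in control. The sickle arrays held both the highest and the lowest value, and the difference was -0.04 ± 0.20 (SE; limma adjusted p = 0.967). Treml1, a receptor of the granule membrane that reaches the surface on activation, had 5.16, 5.28 and 4.93 in sickle and 5.44, 4.68 and 5.14 in control. Its sickle values all lay inside the control range, with a difference of 0.03 ± 0.20 (SE; limma adjusted p = 0.971).

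The intervals set how large a difference in array signal could have been missed, which need not equal that in RNA amount. For 6 of the 8 genes the upper bound of the 95% interval was below a 2-fold rise, with Itga2b at 1.11-fold, Gp5 at 1.14-fold, Gp9 at 1.24-fold, Gp6 at 1.35-fold, Treml1 at 1.40-fold and Pf4 at 1.44-fold. For Ppbp and Itgb3 it reached 2.22-fold and 2.23-fold. Two-sided exact permutation tests over the arrays gave p from 0.2 to 1 for the 8 genes, where the smallest p this design allows is 0.1. Dim rows can compress a change, and Itga2b, Treml1, Gp5 and Gp6 lay no higher than the median level of all genes tested. As a landmark, 95% of 1081 olfactory receptor genes, which ventricle is not known to use, averaged below 4.94 on the same scale, and so did Gp5 and Gp6, along with 8 of the 36 genes of the wider platelet list described next. Rows differ in brightness for reasons other than RNA amount, so this is no detection limit for a single gene, and levels are not compared between genes.

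**Figure D2:**
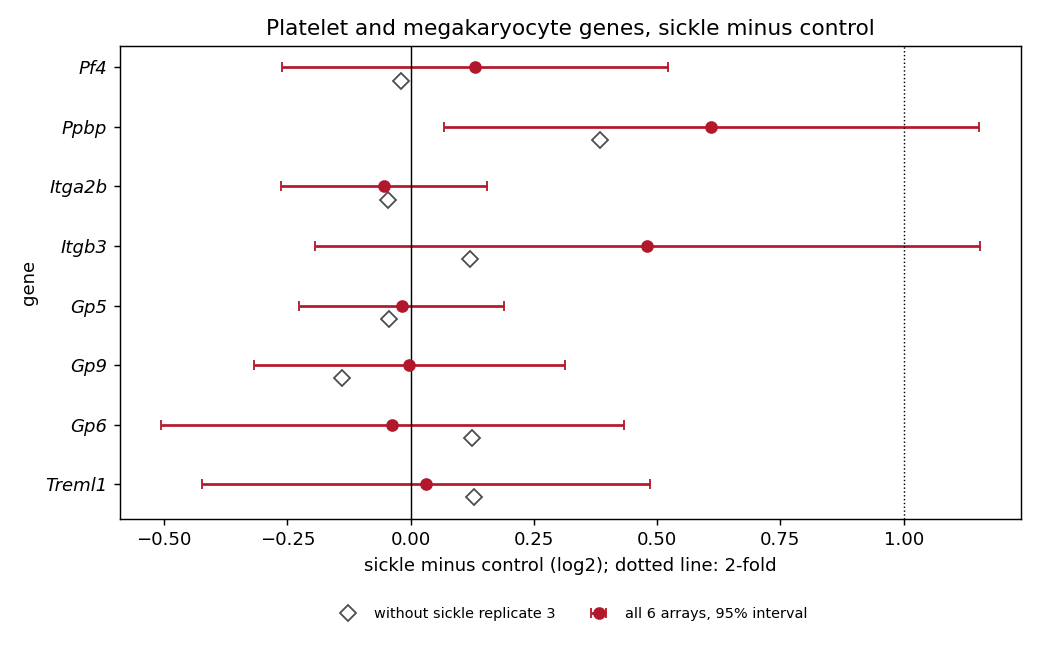
Difference in log2 level, sickle minus control (horizontal axis), for the 8 genes, with 95% intervals from limma over 6 arrays (filled) and the value without sickle replicate 3 (open). Only the Ppbp interval leaves out 0, and the intervals of Ppbp and Itgb3 alone reach the dotted line at 2-fold.

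A wider list of 40 platelet and megakaryocyte genes, of which 36 were measured, gave no calls either, though more of its genes had a higher than a lower mean in sickle. With limma, 0 of 36 passed the adjustment (adjusted p from 0.207 to 0.989). The mean was higher in sickle for 30 of the 36, against 48.4% of all genes, and the median difference was 0.23. At an unadjusted p under 0.05, 9 were higher and 0 lower, where 4.30% of all genes were counted in the higher direction. All 3 sickle arrays lay above all control arrays for 9 of the 36, against 7.61% of all genes. Sickle replicate 3 was the highest array for 20 of the 36, against 23.9% of all genes. Without it, 0 of the 36 passed (0.0976% of all genes), 24 of the 36 were higher (50.2% of all genes), the median was 0.14, and 5 had an unadjusted p under 0.05 in that direction (4.83% of all genes). Both other sickle arrays lay above all control arrays for 9 of the 36 (13.5% of all genes), and for 0 of the 8. The 5 at an unadjusted p under 0.05 were Vwf, Lcp2, F5, Tbxa2r and Tubb1. Genes of this list are named by smallest p, and none of the 6 with a lower mean is among those named. Of the genes of this list named here, Tubb1, F5, Cd226 and Rgs18 averaged below 4.94.

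Vwf encodes von Willebrand factor, which platelets store and endothelial cells also make, and had the smallest p of the list. Its log2 levels were 8.10, 7.82 and 8.60 in sickle, against 7.19, 7.21 and 6.73 in control. Every sickle array lay above every control array. The difference was 1.13 ± 0.22 (SE; 95% interval 0.63 to 1.63; limma adjusted p = 0.207), and 0.92 without sickle replicate 3. Selp encodes P-selectin, an adhesion receptor that platelets and endothelial cells both store. It had 5.66, 5.18 and 6.35 in sickle and 5.12, 4.79 and 5.16 in control, again without overlap (difference 0.71 ± 0.27, SE; limma adjusted p = 0.551; 0.40 without sickle replicate 3).

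Tubb1 encodes the beta-tubulin of the platelet's marginal band and is largely restricted to the megakaryocyte line. It had 5.15, 5.19 and 4.88 in sickle, against 4.87, 4.84 and 4.58 in control. The groups did not overlap, with the lowest sickle value just above the highest control value. The difference was 0.31 ± 0.13 (SE; limma adjusted p = 0.565). Itga2b, also made almost only by megakaryocytes and their precursors, differed by -0.05 on the same arrays. F5, coagulation factor V, had 4.46, 4.58 and 4.46 in sickle and 4.30, 4.02 and 4.19 in control (0.33 ± 0.11, SE; limma adjusted p = 0.492). Over the 9 granule and cytoskeleton genes the median difference was 0.31, with 8 higher and 1 lower in sickle. Without sickle replicate 3 it was 0.14, with 7 of 9 higher.

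Of 10 measured receptors, 9 had a higher mean in sickle, and the median difference was 0.09. Among those 9 the differences went from 0.01 to 0.44. Without sickle replicate 3, 6 of the 10 were higher and the median was 0.05. Tbxa2r, the thromboxane receptor, also found on smooth muscle, had 6.14, 6.34 and 5.93 in sickle and 5.82, 5.74 and 5.92 in control (0.31 ± 0.13, SE; limma adjusted p = 0.564). Cd226, an adhesion receptor shared with lymphocytes, differed by 0.41 ± 0.17 (SE; limma adjusted p = 0.565), with sickle replicate 2 inside the control range.

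Signalling genes, most of which leukocytes also use, had a median of 0.37 over 10, with 8 higher and 2 lower in sickle. Lcp2, an adaptor below glycoprotein VI and lymphocyte receptors, had 7.12, 7.31 and 7.69 in sickle and 6.84, 7.01 and 6.74 in control (0.51 ± 0.16, SE; limma adjusted p = 0.471). Rgs18, a brake on G-protein signals in platelets, differed by 0.41 ± 0.16 (SE; limma adjusted p = 0.555), with sickle replicate 2 inside the control range. The 7 transcription factors of the megakaryocyte line had a median of 0.22, with 5 higher and 2 lower in sickle. Without sickle replicate 3 it was 0.19, with 5 of 7 higher. Fli1, which endothelial cells also express, had 10.02, 10.17 and 10.31 in sickle and 9.92, 9.90 and 9.90 in control (0.26 ± 0.10, SE; limma adjusted p = 0.557). Gata1, shared by megakaryocytes and red-cell precursors, had 4.98, 5.03 and 5.32 in sickle and 4.84, 4.87 and 4.88 in control (0.24 ± 0.11, SE; limma adjusted p = 0.595). Both were without overlap between the groups.

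**Figure D3:**
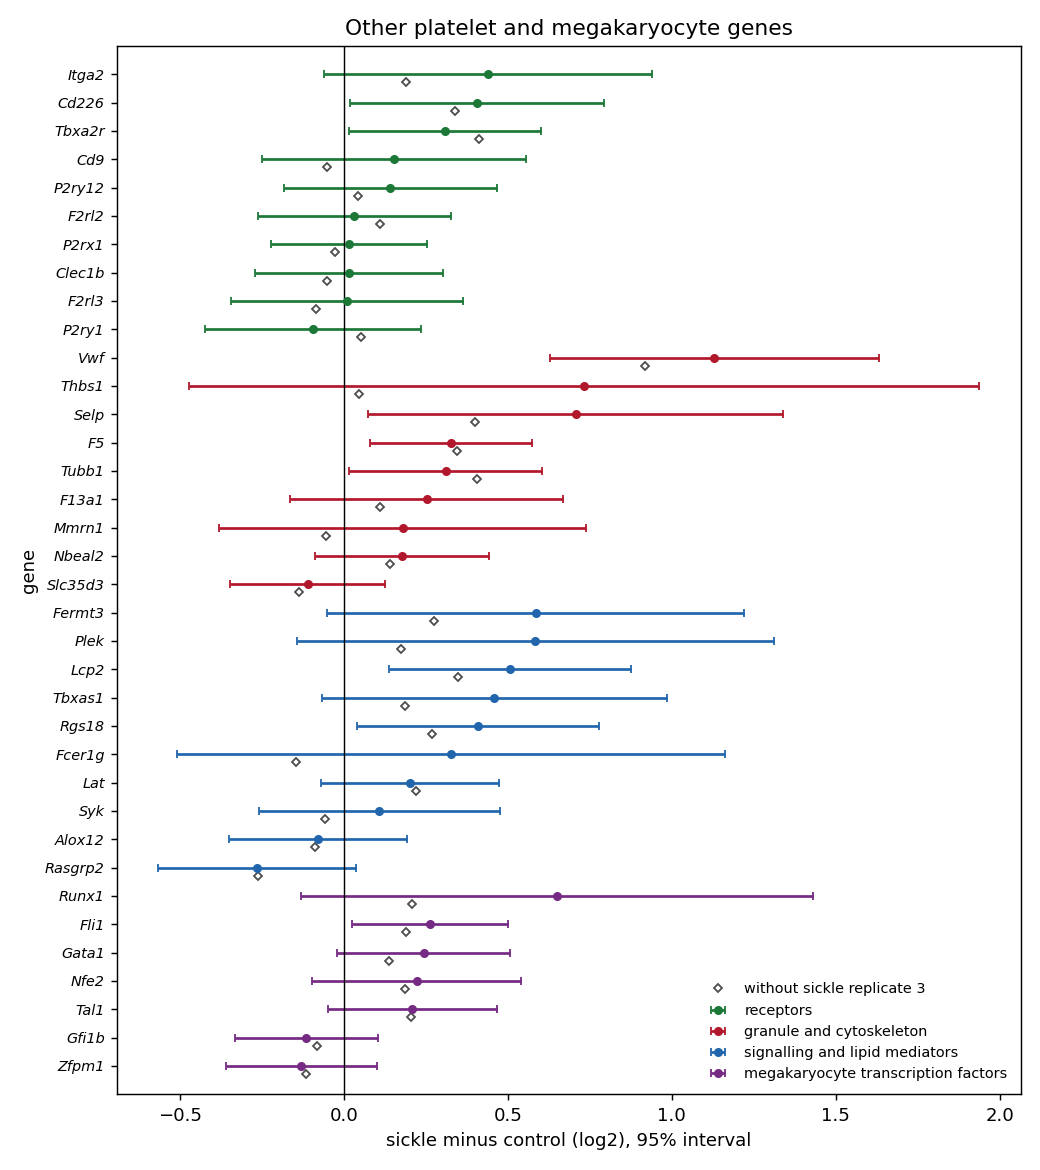
Difference in log2 level, sickle minus control (horizontal axis), with 95% intervals from limma for 36 other platelet and megakaryocyte genes coloured by role; open diamonds give the value without sickle replicate 3. Vwf has the largest difference of the 36 (1.13), and 30 of the 36 points lie to the right of 0.

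Markers of other blood cells gave unlike values on the same arrays. Of 15 measured red-cell genes, 6 rose (0.167% of all genes were called higher), 13 had a higher mean and the median difference was 0.78. Slc4a1, the band 3 anion exchanger, had 9.30, 10.00 and 10.55 in sickle and 7.00, 6.44 and 6.47 in control (difference 3.31, 95% interval 2.60 to 4.02; limma adjusted p = 0.0109). Bpgm, which makes a regulator of haemoglobin's oxygen affinity, had 10.02, 10.38 and 10.20 in sickle and 8.50, 8.60 and 8.36 in control (difference 1.71; limma adjusted p = 0.00491). With 1 array left out the count of 6 was 2, 1 and 0 when control replicate 1, 2 or 3 was dropped, and 6, 2 and 3 when sickle replicate 1, 2 or 3 was. The difference exceeded 1.15, the highest upper interval bound among the 8 platelet and megakaryocyte genes, for those 6 red-cell genes and not for the other 9. The 95% intervals of those 6 had lower bounds down to 1.08. The log2 of the summed red-cell signal was 12.36 to 12.86 in sickle and 11.25 to 11.39 in control. That of the 8 platelet and megakaryocyte genes was 8.75 to 9.23 in sickle and 8.69 to 8.74 in control. Every sickle sum of those lay above every control sum, and the nearest, 8.749 and 8.741, all but met. The brightest rows weigh most in such sums.

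Lymphocyte markers had 9 of 9 measured genes higher, against 48.4% of all genes, and a median of 0.33. At an unadjusted p under 0.05 with limma, 6 were counted, all higher, against 4.30% of all genes in that direction. All sickle arrays lay above all control arrays for 5 of the 9, against 7.61% of all genes. Of the 9, 4 averaged below 4.94. There was 1 call (0.167% of all genes were called higher), the B-cell gene Cd79a (1.12 ± 0.15 SE, limma adjusted p = 0.0484). That call was lost with any 1 array left out (adjusted p from 0.0600 to 0.231). Their summed signal was 8.38 to 8.63 in sickle and 7.85 to 8.02 in control. Neutrophil markers had 0 of 13 called with limma and a median of 0.11, with 10 higher (48.4% of all genes) and 3 lower in sickle. At an unadjusted p under 0.05, 1 was counted, Ngp (0.25 ± 0.10, SE; limma adjusted p = 0.557), against 8.69% of all genes. Camp had the next smallest p and a lower mean in sickle (-0.30 ± 0.18, SE; limma adjusted p = 0.653). Of the 13, 10 averaged below 4.94, Ngp and Camp among them. The summed neutrophil signal was 8.20 to 8.36 in sickle and 8.12 to 8.26 in control. The part of blood left in the tissue in the platelet values was not tested.

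Sickle replicate 3 stood apart from the other arrays, and Itgb3, Ppbp, Pf4, Gp9 and Gp5 had their highest value there, as did 23.9% of all genes. For Gp5 that value was 4.79, against 4.78 in sickle replicate 1. In sickle replicate 3, 340 genes exceeded the mean of the other sickle arrays by more than 2-fold. The same count within its group was 13 to 25 for each of the other arrays. Relative to control, the median of 12 macrophage markers was 0.02, 0.17 and 1.20 in sickle replicates 1, 2 and 3. That of 10 fibroblast and matrix markers was 0.03, 0.15 and 2.11. With limma 0 markers passed in either list. At an unadjusted p under 0.05, 2 of 12 macrophage and 2 of 10 fibroblast markers were counted, all higher, against 4.30% of all genes in that direction. They were Csf1r (0.63 ± 0.25, SE) and Lyz2 (0.71 ± 0.30) of macrophages and Lum (0.79 ± 0.28) and Postn (1.85 ± 0.74) of fibroblasts. Without sickle replicate 3 their differences were 0.31, 0.32, 0.42 and 0.87. All sickle arrays lay above all control arrays for 2 of 12 macrophage and 4 of 10 fibroblast markers, these included, against 7.61% of all genes. The summed macrophage signal was 11.61 to 12.70 in sickle and 11.42 to 11.69 in control, and the fibroblast and matrix signal 12.96 to 14.64 in sickle and 12.82 to 13.03 in control. The part of these cells in the Itgb3, Ppbp and Pf4 values was not tested.

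Endothelial markers, whose cells also make Vwf, Selp and Fli1, had a median difference of 0.10 over 11 genes. Of these, 8 were higher (48.4% of all genes) and 3 lower in sickle. Without sickle replicate 3 the median was 0.01, with 7 of 11 higher (50.2% of all genes). With limma over all 6 arrays 0 passed, and 1 of 11 had an unadjusted p under 0.05 (8.69% of all genes). It was Eng, a co-receptor for TGF-beta (0.40 ± 0.13, SE; limma adjusted p = 0.473), followed by Kdr (0.23 ± 0.11, SE). The summed endothelial signal was 13.30 to 13.39 in sickle and 13.13 to 13.31 in control. Its part in the Vwf and Selp values was not tested. The arrays bore heart-muscle markers, and no comparison between heart chambers was made. The 12 cardiomyocyte genes lay between 8.57 and 13.62 on every array, with a median difference of -0.04, and with limma 0 passed the adjustment or an unadjusted p of 0.05 (Tnni3 had -0.11 ± 0.10 and Actn2 -0.08 ± 0.09, SE).

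**Figure D4:**
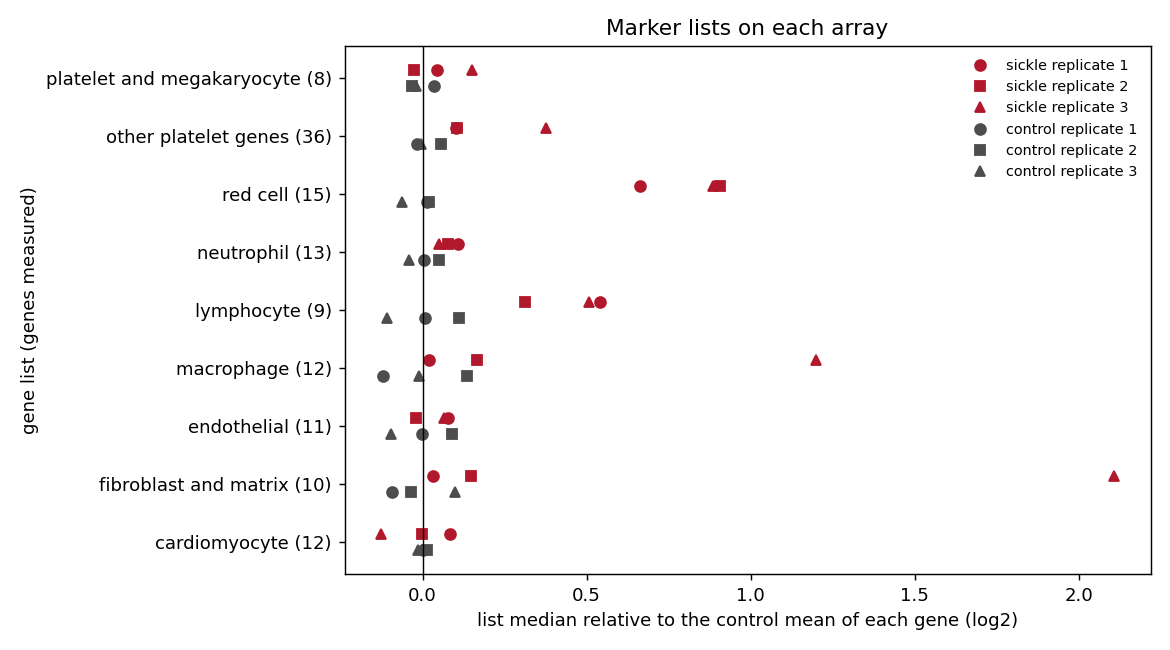
Median log2 level of each gene list relative to the control mean of its genes (horizontal axis), for each sickle (red) and control (grey) array. The red-cell medians of the sickle arrays lie from 0.66 to 0.91, those of the 8 platelet and megakaryocyte genes from -0.03 to 0.15, and the macrophage and fibroblast lists are far to the right in sickle replicate 3 alone.

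Profiles over the 6 arrays were compared among 2010 named genes with an SD of at least 0.3, as a description that rests on few arrays. Those most like Pf4 were Myl6, Il1b, Il34, Scg3 and Retnlg, with Pearson r from 0.96 to 0.99 over 6 arrays. Those most like Itga2b were Stbd1, Slc24a4, Arrdc2, Pate12 and Frem2, with r from 0.91 to 0.96. The Itga2b profile itself had an SD of 0.06 over the 6 arrays. Of the platelet and megakaryocyte genes, 2 of the 8 and 13 of the wider 36 varied enough to enter this search.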

How the data were processed

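The authors deposited log2 values made with RMA, per the submitters' processing notes, which give no version; that they are log2 was inferred from their range. RMA corrects background, forces the arrays to 1 distribution and summarises probes, which can hide a change shared by most genes and compress dim rows. Array medians were 5.50 to 5.54. Platform annotation gave 1 symbol to 22030 of 25293 rows, several to 685 and none to 2578. The brightest row by mean over the 6 arrays stood for a gene, and each of the 8 measured genes had 1 row. Limma 3.58.1 (R 4.3.3, lmFit and eBayes, group as the only term, two-sided) was run over 21506 genes with Benjamini-Hochberg adjustment and no filter on dim genes. It was tested on simulated data. Each array is a separate mouse per the labels, and 3 arrays a group limit the precision. The genes and lists were chosen with earlier results of these data known. Named are all measured genes of the set, of the other platelet genes those at an unadjusted p under 0.05 and the 2 with the smallest p in each role, of each cell list those with the smallest p, and the 5 profiles most like Pf4 and Itga2b. Promoters are from RefSeq (GRCm38.p6). The olfactory receptor landmark was added after seeing the data. Figures used matplotlib 3.10.9.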

Additional observations from a re-analysis of the deposited data

How the results depend on the processing

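Over 15 alternatives, 0 of the 8 platelet and megakaryocyte genes and 0 of the 36 other platelet genes were called, and the lowest adjusted p of the 8 was 0.382. Of 116 values of single genes, 105 kept their direction. The 11 that turned came from genes whose main difference was small. With 1 array left out, Pf4 ranged from -0.020 to 0.26, Gp5 from -0.044 to 0.026, Gp9 from -0.14 to 0.11, Gp6 from -0.25 to 0.13 and Treml1 from -0.17 to 0.21. Ppbp, Itgb3 and Itga2b kept their direction in those fits. Gp6 was 0.11 with array weights. Leaving out the dimmer genes dropped Itga2b, Gp5, Gp6 and Treml1, and the median difference of the other 4 was 0.31. The count of genes called, 39, ranged from 4 to 36 with 1 array left out. It was 4, 5 and 13 when control replicate 3, 2 or 1 was dropped, and 21 when sickle replicate 2 or 3 was. With the replicate number as a block, 12 genes were called, and no platelet gene. Same-numbered arrays had deviations correlated at 0.11, -0.05 and 0.05, which does not pair them, and the arrays did not all correlate best with their own number. Gp5 and Gp6 lie below the olfactory receptor landmark of 4.94; background was not measured for single rows.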
